A study of Mus musculus with 4 samples.

Results

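The mitochondrial enzymes of long-chain fatty acid oxidation were followed as a set of 10 genes, Acadm, Acadl, Acadvl, Hadha, Hadhb, Cpt1b, Cpt2, Acaa2, Ech1 and Etfdh, taken by symbol from 40137 gene units. The libraries came from thigh skeletal muscle of wild-type male mice of the inbred strain C57BL/6J, aged 28 months (3 libraries) or 18 months (1 library). All 4 libraries share genotype, strain, sex, tissue and diet, and no agent was given. Sequencing served as a check on exon arrays in a study of alternative splicing with age. The extraction text in the labels describes keratinocytes scraped from skin and arrays, which goes against the labelled tissue. Gene and bin p-values measured the spread between the 28-month libraries, and no label says that these came from separate animals; the 18-month library was taken to vary as they do.

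In muscle fibres, long-chain acyl groups cross the inner mitochondrial membrane as carnitine esters, and the matrix enzymes then shorten the acyl-CoA stepwise through dehydrogenation, hydration, a further dehydrogenation and thiolysis. Electrons from the acyl-CoA dehydrogenases pass through the electron transfer flavoprotein to its ubiquinone oxidoreductase and so to the respiratory chain. The pathway is a main fuel route of oxidative fibres at rest and in prolonged work, and its genes are classic targets of the PPAR and oestrogen-related receptors.

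Hadha and Hadhb lie head to head and are read away from each other on opposite strands of chromosome 5. The stretch between their annotated starts, chr5:30155163-30155247 on the plus strand (RefSeq, GRCm38.p6), is 85 bases long and is shown because the 2 genes share it and yet gave different values below. Capitals mark 2 GC boxes (GGGCGG).
Hadha and Hadhb: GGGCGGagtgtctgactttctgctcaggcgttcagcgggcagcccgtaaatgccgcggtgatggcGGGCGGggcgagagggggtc
Among 8 member promoters matched in the RefSeq table (250 bases before to 50 after the start, both strands searched), GGGCGG was in 6, against 35.7% of 32851 promoters. The windows of Hadha and Hadhb both hold the stretch printed above, so its GC boxes count for 2 of the 6. CCAAT was in 1 (Etfdh), against 37.4%, and the NRF1 site, GCGCA followed by its reverse complement, was in 1 (also Etfdh), against 0.971%. DR1, the form bound by PPAR with its partner (AGGTCA repeated after 1 base of any kind), was in 0 of 8 windows, against 0.0396% of all promoters. TCAAGGTCA, the oestrogen-related receptor letters, were in 0, against 0.423%, and the E-box CACGTG was in 0, against 7.15%. These are letter matches only and say nothing of what binds.

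Hadhb has a near copy elsewhere in the genome that bears on its counts. The processed pseudogene Gm13910 on chromosome 2 matched the whole Hadhb coding sequence, 1428 aligned bases at 99.79% identity with no gap in the GENCODE M21 transcripts (GRCm38). The 3 differences, counted from 1 at the 5′ end of the Hadhb transcript, were G320A, A512G and G862A, with the Hadhb base first. The sequence around each is given with the differing base in capitals, to show how little separates reads of the 2 genes.
Hadhb at G320A: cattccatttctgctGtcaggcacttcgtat
Gm13910 at G320A: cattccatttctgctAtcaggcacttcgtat
Hadhb at A512G: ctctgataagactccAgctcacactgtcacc
Gm13910 at A512G: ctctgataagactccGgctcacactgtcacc
Hadhb at G862A: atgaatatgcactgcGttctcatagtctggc
Gm13910 at G862A: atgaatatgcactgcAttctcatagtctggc
A second processed pseudogene, Gm9108, matched 1426 bases at 97.62%. Reads that fall between these positions cannot be told apart, so the Hadhb level is uncertain.

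Total counts per library were 76163175, 75992582 and 67279205 at 28 months and 65780464 at 18 months. Muscle fibre genes summed to 79330, 34930 and 84690 CPM (counts relative to library size, after TMM scaling) at 28 months and 53690 CPM at 18 months, so 28-month replicate 2 was the lowest of the 4 libraries and stood apart from the other 28-month libraries. Fast fibre genes summed to 219100, 110800 and 223800 CPM at 28 months, against 137000 CPM at 18 months, and slow fibre genes to 778, 784 and 1165 CPM at 28 months, against 989.6 CPM at 18 months. The only keratinocyte marker that passed the filter, of 6 listed, was Krt10, at 1.11, 1.12 and 0.928 CPM at 28 months, against 0.845 CPM at 18 months, and Krt5, a defining gene of basal keratinocytes, was at 0 counts in all 4 libraries. The 8 white adipocyte markers summed to 5114, 5139 and 4322 CPM at 28 months, against 3608 CPM at 18 months. The 8 macrophage markers summed to 108, 208 and 194 CPM at 28 months, against 70.6 CPM at 18 months, each of the 8 being higher in every 28-month library. The 6 Schwann cell markers summed to 183, 96.0 and 149 CPM at 28 months, against 324 CPM at 18 months, each of the 6 being lower in every 28-month library. The part of these shifts in the values below was not tested.

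Summed over the bins of each gene, the 10 genes kept a similar total, 2830, 2521 and 2675 CPM at 28 months, against 2500 CPM at 18 months, with the 18-month library just under the lowest 28-month library. Hadhb was the 1 member whose difference was large beside its standard error. None of the 10 passed an adjusted p of 0.05 in the edgeR quasi-likelihood test, in which 0 of 15376 genes (0%) passed. At an unadjusted p under 0.05 the test kept 1 of the 10, Hadhb, against 4.9% of all genes. DESeq2 called 34 genes and none of the 10. All 28-month libraries lay above the 18-month library for 4 members, against 25.4% of all genes, and below it for 5, against 26.4%. The median log2 difference of the 10 (28 months minus 18 months) was -0.01, against 0.06 over all genes tested, and ranged between -0.13 from the 5′-side bins described below and 0.05 without 28-month replicate 2. Cpt1b enters these medians joined with its neighbour Chkb, which fills most of the 5′ side of their unit. In bulk RNA, fewer fibres and less RNA per fibre cannot be told apart. Levels in CPM are not divided by length and are compared only within a gene.

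**Figure D1:**
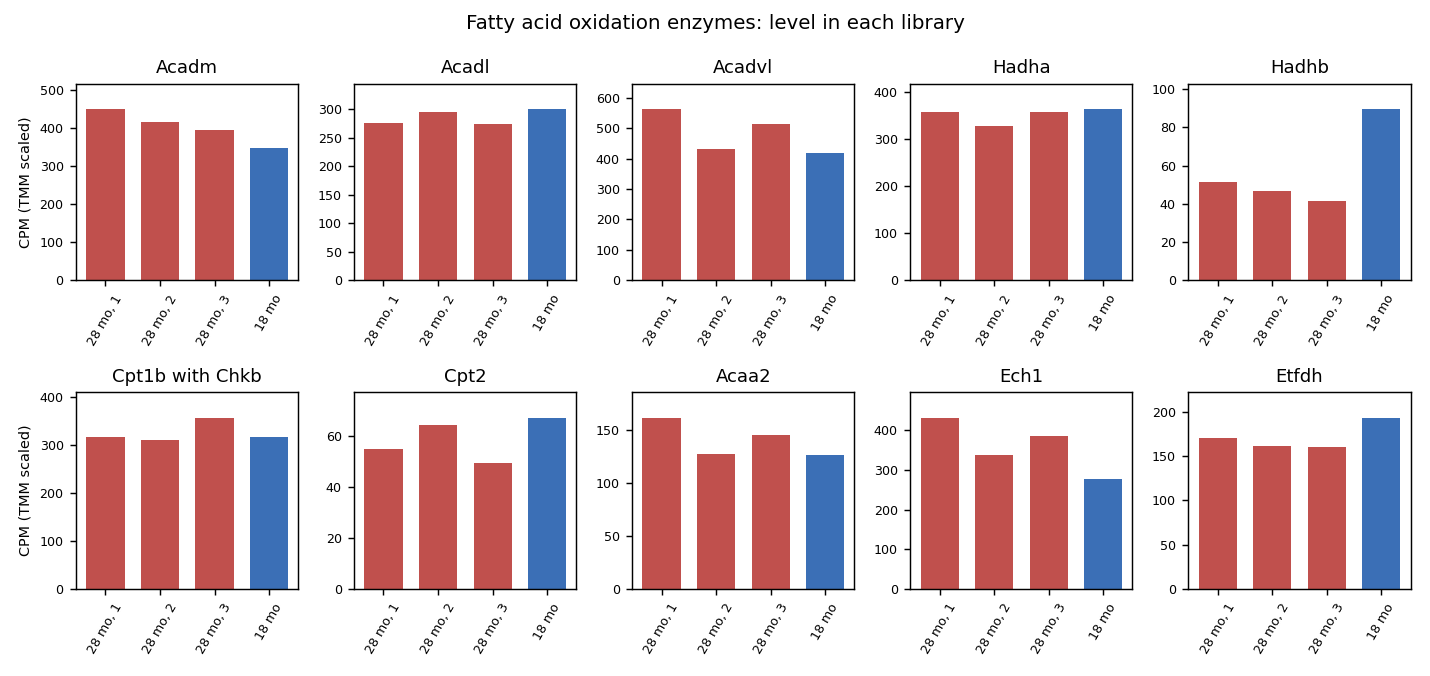
Level of each member gene in every library, in CPM after TMM scaling, as bars in a panel per gene with its own linear axis (28 months red, 18 months blue). Hadhb shows the widest gap, with 28-month libraries at 41.4 to 51.5 CPM and the 18-month library at 89.5 CPM.

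Cpt1b, the muscle form of carnitine palmitoyltransferase 1, makes the acylcarnitine and is the step that malonyl-CoA inhibits. It lies on chr15:89416405-89425863 (minus strand, GRCm38) and was measured only in a unit joined with its neighbour Chkb, a choline kinase gene (ENSMUSG00000022617 and ENSMUSG00000078937). The joined unit had 317, 311 and 356 CPM at 28 months, against 317 CPM at 18 months. The 18-month value fell inside the 28-month range. The log2 difference was 0.05 ± 0.31 (SE; edgeR adjusted p 0.980), and without 28-month replicate 3 it was -0.01.

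Cpt2, which turns the acylcarnitine back into acyl-CoA on the matrix side (ENSMUSG00000028607, chr4:107903981-107923610, minus strand), had 54.7, 64.2 and 49.3 CPM at 28 months, against 67.0 CPM at 18 months. All 28-month libraries were below the 18-month library, replicate 2 only slightly. Its log2 difference was -0.26 ± 0.28 (SE; edgeR adjusted p 0.897).

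The 3 acyl-CoA dehydrogenases take up the acyl-CoA in order of chain length. Acadvl, the very long-chain enzyme (ENSMUSG00000018574, chr11:70010183-70015411, minus strand), had 562, 433 and 512 CPM at 28 months, against 419 CPM at 18 months. Each 28-month library was higher, replicate 2 by little, and the log2 difference was 0.26 ± 0.35 (SE; edgeR adjusted p 0.911). The gene overlaps Dvl2 on the opposite strand (chr11:70000595-70012301), 17 of its 36 bins touching Dvl2 exons, and since no strand setting of the counting is given, reads of the 2 genes cannot be told apart there. Acadl, the long-chain enzyme (ENSMUSG00000026003, chr1:66830839-66863277, minus strand), had 275, 296 and 274 CPM at 28 months, against 300 CPM (299.8) at 18 months, all 28-month libraries being slightly below. Its log2 difference was -0.09 ± 0.30 (SE; edgeR adjusted p 0.964). Acadm, the medium-chain enzyme (ENSMUSG00000062908, chr3:153922357-153944632, minus strand), had 449, 415 and 396 CPM at 28 months, against 347 CPM at 18 months. The groups did not overlap, with 28 months higher, at a difference of 0.28 ± 0.32 (SE, log2; edgeR adjusted p 0.898). A processed pseudogene of Acadm, Gm5131, matched 1288 bases at 89.44% identity.

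The trifunctional protein joins the hydratase and the second dehydrogenase in its alpha subunit, Hadha, with the thiolase in its beta subunit, Hadhb. Hadha (ENSMUSG00000025745, chr5:30118304-30155162, minus strand) had 357, 328 and 356 CPM at 28 months, against 363 CPM at 18 months. The 28-month libraries were all lower, replicates 1 and 3 by little and replicate 2 by more, and the log2 difference was -0.06 ± 0.31 (SE; edgeR adjusted p 0.975). Hadhb (ENSMUSG00000059447, chr5:30155248-30184593, plus strand) had 51.5, 46.6 and 41.4 CPM at 28 months (mean 46.5 ± 5.05, SD, n = 3) and 89.5 CPM at 18 months. Every 28-month library was well below the 18-month library. The log2 difference was -0.95 ± 0.26 (SE; edgeR unadjusted p 0.0141, adjusted p 0.859), and without 28-month replicate 2 it was -0.93 with an adjusted p of 0.0263. That fit called 1806 genes (11.7%), 7.4% of all genes as higher and 4.35% as lower. Its spread came from 28-month replicates 1 and 3 only, the pair of libraries most alike (chi-square over degrees of freedom 9.49, against at least 61.2 for every other pair). The 2 subunit genes share the start region printed above, and the difference between their differences was not tested.

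The pseudogene Gm13910 had values of the same kind as Hadhb, 149, 137 and 133 CPM at 28 months, against 263 CPM at 18 months, a difference of -0.91 ± 0.27 (SE, log2; edgeR adjusted p 0.859). Hadhb took 25.7, 25.4 and 23.8% of the pair's counts at 28 months, against 25.4% at 18 months, so the 18-month share lay inside the 28-month range. The sum of the pair was 201, 183 and 174 CPM at 28 months, against 352 CPM at 18 months, at a difference of -0.92 ± 0.28 (SE, log2; edgeR adjusted p 0.859). Which of the 2 loci the reads came from was not tested.

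Acaa2, the medium-chain thiolase (ENSMUSG00000036880, chr18:74779197-74806208, plus strand), had 161, 127 and 145 CPM at 28 months, against 127 CPM (126.8) at 18 months. The 28-month libraries were above the 18-month library, replicate 2 by under 1 CPM, and the log2 difference was 0.19 ± 0.30 (SE; edgeR adjusted p 0.921). Ech1, an isomerase that shifts double bonds of unsaturated acyl chains (ENSMUSG00000053898, chr7:28825217-28832247, plus strand), had 431, 339 and 385 CPM at 28 months, against 279 CPM at 18 months. The groups did not overlap, with 28 months higher, and the log2 difference of 0.47 ± 0.34 (SE; edgeR adjusted p 0.861) was the most positive of the 10. Etfdh, the ubiquinone oxidoreductase that takes electrons from the flavoprotein (ENSMUSG00000027809, chr3:79603788-79629500, minus strand), had 170, 162 and 160 CPM (160.5) at 28 months, against 193 CPM at 18 months. All 28-month libraries were lower, at a difference of -0.23 ± 0.28 (SE, log2; edgeR adjusted p 0.899).

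The sum over a gene hides where along the transcript the counts lay. The bins of each gene were divided at the middle bin number into a 5′ side and a 3′ side, and for 8 of 9 members the share of counts in the 5′-side bins was higher in every 28-month library than in the 18-month library, against 74% of 11263 genes, so the members did as most genes did. Cpt1b was left out, since Chkb fills most of the 5′ side of its unit. Over all genes the median share was 26.6, 27.8 and 26.6% at 28 months, against 19.5% at 18 months. Among members, Hadhb had 26.8, 36.6 and 23.4% (23.35) at 28 months, against 11.4% at 18 months, the low library by a wide gap being the 18-month library. Cpt2 had 9.69, 10.6 and 9.68% at 28 months, against 3.97% (3.965) at 18 months. Acadm had 21.9, 22.3 and 21.9% at 28 months, against 13.2% (13.15) at 18 months. The exception was Ech1, with 52.2, 58.4 and 51.9% at 28 months, against 53.2% at 18 months, where the ages overlapped.

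**Figure D2:**
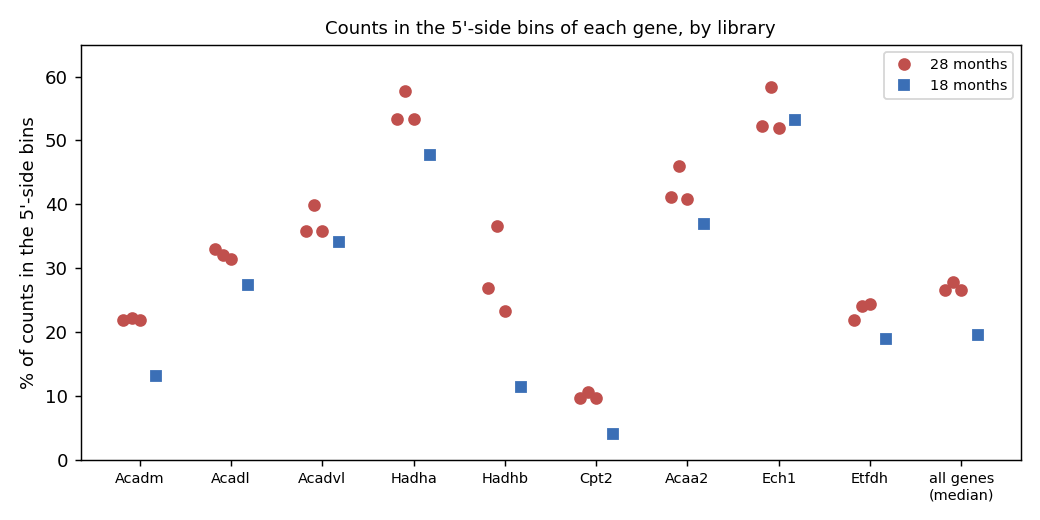
Share of each gene's counts that lay in its 5′-side bins, in percent, by library, for 9 members and as the median of all 11263 genes. Every 28-month library lies above the 18-month library for 8 members (Hadhb, 23.4 to 36.6%, against 11.4%), and the 18-month library lies inside the 28-month range for Ech1.

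At the other end, the last tested bin of Acadm held 14.7, 14.2 and 15.1% of the gene's counts at 28 months, against 29.8% at 18 months. That of Acadl held 11.2, 11.2 and 11.4% at 28 months, against 18.5% at 18 months, and that of Cpt2 held 22.4, 15.2 and 21.3% at 28 months, against 29.0% at 18 months. That of Hadhb, a small bin, held 0.292, 0.089 and 0.283% at 28 months, against 0.362% at 18 months. In each of these genes, which were picked for drawing, the 18-month library was the highest. The share of all genes with such a last bin was not counted.

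**Figure D3:**
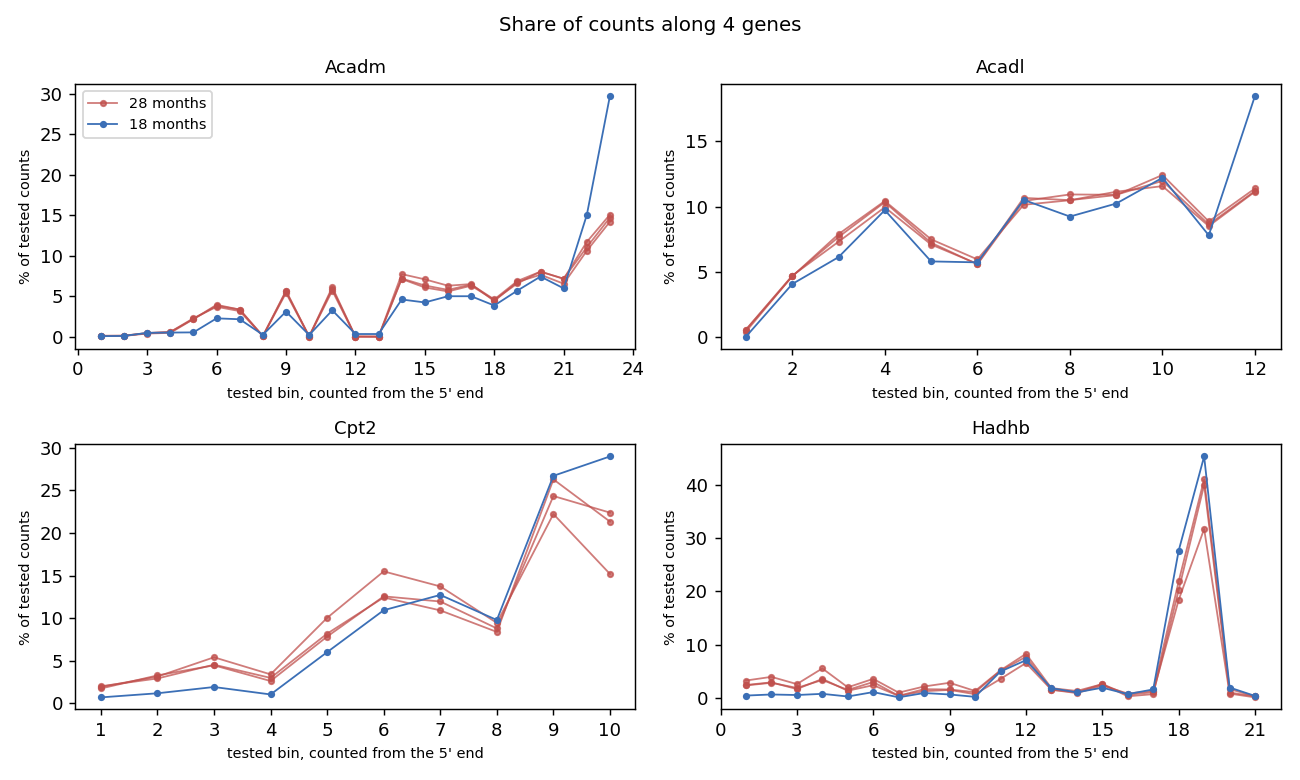
Share of tested counts, in percent, in each tested bin of Acadm, Acadl, Cpt2 and Hadhb, counted from the 5′ end, with 1 line per library (28 months red, 18 months blue). The 28-month lines of Acadm end at 14.2 to 15.1% in the last bin, against 29.8% at 18 months.

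The side used, together with its own scaling, changed the direction of some members. From 5′-side bins alone, scaled over the same side of all genes, the log2 difference was 0.57 for Cpt2, against -0.26 from all bins, and -0.14 for Acadvl, -0.13 for Acaa2 and -0.03 for Ech1, which were positive from all bins. Hadhb was -0.13 from 5′-side bins and -1.18 from 3′-side bins. None of these differences passed an adjusted p of 0.05 in edgeR. With the scaling of all bins kept, 5′-side levels were higher in every 28-month library for Acadvl, Acaa2, Ech1 and Cpt2. Acadvl had 202, 173 and 183 CPM at 28 months, against 143 CPM at 18 months, and Ech1 had 225, 198 and 200 CPM, against 148 CPM. Acaa2 had 66.45, 58.7 and 59.2 CPM, against 46.9 CPM. Hadhb overlapped, at 12.8, 15.65 and 9.04 CPM at 28 months, against 9.5 CPM at 18 months.

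**Figure D4:**
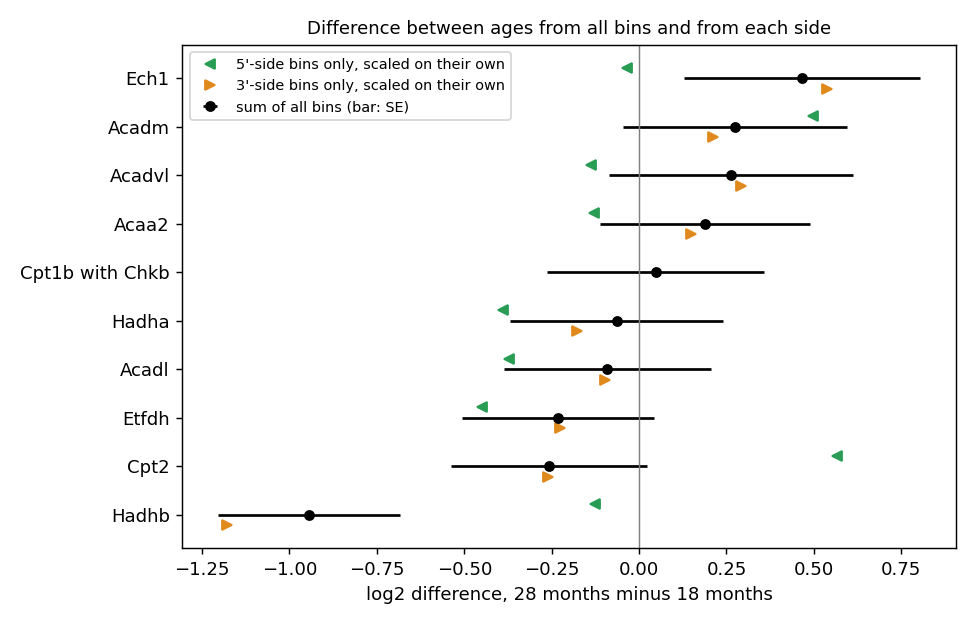
Log2 difference between ages (28 months minus 18 months) of each member from the sum of all bins (black, bar: SE) and from its 5′-side or 3′-side bins alone, each side scaled on its own (triangles). Hadhb is at -0.95 from all bins and -0.13 from the 5′ side, while Cpt2 is at -0.26 and 0.57.

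Exon usage, the count of a bin relative to its gene, gave calls for 6 of the 9 members that could be tested alone, Acadm, Acadl, Acadvl, Hadhb, Acaa2 and Ech1 (edgeR diffSpliceDGE, Simes adjusted p under 0.05), against 3.54% of 11000 genes. Among 2190 genes with a mean count at or above that of the lowest member, 11.2% were called. That floor is the mean of Hadhb, 4078 counts, and the higher counts of the other members were not matched. By bins, 14 of 169 member bins passed, against 0.366% of 143485 bins. The shares over all bins, here and by direction, were not matched for count level. At 28 months 9 of the 14 were lower and 5 higher, against 0.158% of all bins lower and 0.208% higher. Without 28-month replicates 1, 2 or 3 in turn, 3, 9 and 3 of the 9 members were called, while 226, 3301 and 164 of all genes were, against 389 with all libraries.

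**Figure D5:**
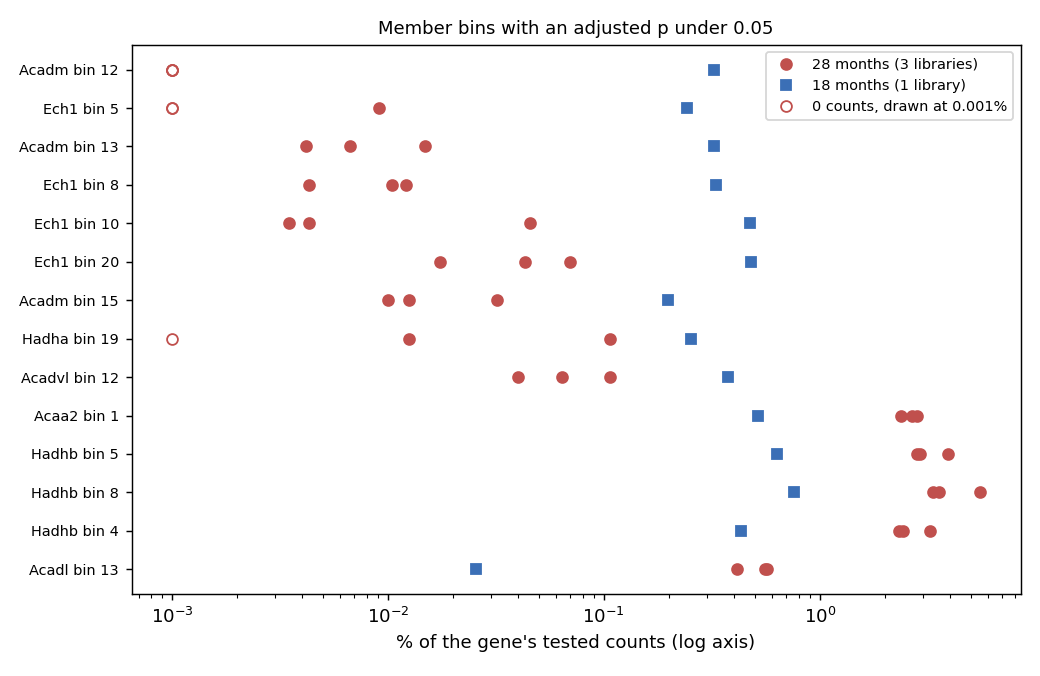
Percent of a gene's counts over tested bins (log axis) for the 14 member bins that passed an adjusted p of 0.05, with 28-month libraries as circles and the 18-month library as a square. In the 9 upper bins every 28-month library lies below the 18-month library, which held 0.199 to 0.480% of the gene, and in the 5 lower bins every 28-month library lies above it.

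The 9 bins lower at 28 months were minor pieces of their genes, with mean shares of 0 to 0.0703% at 28 months, against 0.199 to 0.480% at 18 months. At 28 months the mean was under 10 counts for Acadm bins 12, 13 and 15 and Ech1 bins 5, 8 and 10. These bins passed the filter, a mean over all 4 libraries, only through the 18-month library. Bins that low at 28 months could be tested only where the 18-month library was higher, so their direction is no result by itself. In Acadm, bin 12 had 0 counts in each 28-month library and 73 counts at 18 months, 0.323% of the gene (exact 95% interval 0.253 to 0.406%). Against a limit of 3 counts over the 28-month libraries together, 0.00318% of the gene, this was at least 101-fold lower, or at least 79-fold at the lower end of the 18-month interval (edgeR adjusted p 1.0e-13). Its neighbour bin 13 had 2, 6 and 1 counts at 28 months, against also 73 counts at 18 months, a log2 difference in usage of -5.06 (edgeR adjusted p 2.1e-08). Whether the same fragments were counted in both was not tested. Bin 15 had 3, 13 and 3 counts at 28 months, against 45 counts at 18 months (edgeR adjusted p 0.0052), and lost its call without 28-month replicate 1 (adjusted p 0.0814) or replicate 3 (0.110). The Acadm bins could not be placed on the genome, as the gene has 24 bins here and 33 in the flattened M21 annotation.

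In Ech1 4 bins were lower at 28 months, and the gene could be placed, as its 22 bins equal those of the flattened annotation, which does not prove the placement. Bin 10 is a whole intron and bin 20 another, while bins 5 and 8 are parts of an intron at a splice site. Bins 10, 20 and 5 are printed because intron sequence within annotated exons carried the Ech1 call, with the splice site letters GT and AG in capitals.
Ech1 bin 10, chr7:28829925-28830001, plus strand: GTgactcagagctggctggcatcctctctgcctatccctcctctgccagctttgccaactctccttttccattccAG
Ech1 bin 20, chr7:28831461-28831716, plus strand: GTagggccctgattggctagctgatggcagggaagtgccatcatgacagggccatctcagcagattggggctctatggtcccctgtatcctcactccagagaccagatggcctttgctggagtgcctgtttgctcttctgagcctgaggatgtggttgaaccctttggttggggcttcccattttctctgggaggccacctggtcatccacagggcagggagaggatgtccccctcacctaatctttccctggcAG
Ech1 bin 5, chr7:28826079-28826123, plus strand: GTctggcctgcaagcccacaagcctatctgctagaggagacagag
Bin 10 had 1, 15 and 1 counts at 28 months, against 86 counts at 18 months, a usage difference of -4.67 on the log2 scale (edgeR adjusted p 6.1e-08). Bin 20 had 5, 23 and 10 counts at 28 months, against 87 counts at 18 months, a usage difference of -3.49 (edgeR adjusted p 9.8e-06). In both, replicate 2 was the highest of the 28-month libraries and the 18-month library was far above it. Bin 5 had 0, 3 and 0 counts at 28 months, against 44 counts at 18 months (edgeR adjusted p 6.5e-07), and bin 8 had 3, 4 and 1 counts at 28 months, against 60 counts at 18 months (edgeR adjusted p 4.1e-07).

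Acadvl bin 12 is a whole intron of the gene and, read the other way, overlaps Dvl2 exon annotation. It had 15, 27 and 33 counts at 28 months, against 102 counts at 18 months, 0.0703% ± 0.0339 (SD, n = 3), against 0.375% of the gene. The usage difference was -2.44 (edgeR adjusted p 0.0049), and without 28-month replicate 1 the adjusted p was 0.172.
Acadvl bin 12, chr11:70011266-70011344, minus strand: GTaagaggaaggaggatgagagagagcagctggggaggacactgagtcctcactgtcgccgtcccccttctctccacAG
Over all 7 Ech1 bins that lie in introns of other transcripts, counts were 11, 54 and 14 at 28 months, against 288 at 18 months. These were 0.0382, 0.163 and 0.0602% of the gene at 28 months, against 1.59% at 18 months. The 6 such bins of Acadvl held 0.0612, 0.171 and 0.194% at 28 months, against 0.547% at 18 months. Across 4320 placed genes the median share was 0.138, 0.434 and 0.157% (0.1566) at 28 months, against 0.415% at 18 months, and the 18-month library was above every 28-month library in 33.7% of them. Over all genes, then, 28-month replicate 2 was close to the 18-month library, while for Ech1 and Acadvl it lay with the other 28-month libraries. The part of that general shift in the Ech1 and Acadvl calls was not tested.

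Hadha bin 19 had 3, 34 and 0 counts at 28 months, against 60 counts at 18 months. Replicate 2 stood well above the other 28-month libraries, and the bin's call (edgeR adjusted p 0.0320) was lost without 28-month replicate 1 (adjusted p 0.811) or replicate 3 (0.802). The Simes test over the gene gave an adjusted p of 0.0702.

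The 5 bins higher at 28 months all lay toward the 5′ end of their genes. Acadl bin 13, its first exon, had 102, 119 and 94 counts at 28 months, against 5 counts at 18 months, 0.512% ± 0.0866 of the gene (SD, n = 3), against 0.0256% (exact 95% interval 0.0083 to 0.0598%). The 28-month libraries were close together and far above the 18-month library, at a usage difference of 4.29 on the log2 scale (edgeR adjusted p 0.00011), which held without any 1 of the 28-month libraries (adjusted p 1.9e-09 to 0.0081). Acaa2 bin 1, its first bin, had 257, 334 and 247 counts at 28 months, against 43 counts at 18 months, 2.63% ± 0.225 (SD, n = 3), against 0.521%. Its usage difference was 2.33 (edgeR adjusted p 0.0266), lost without 28-month replicate 1 (adjusted p 0.142) or replicate 3 (0.349).

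Hadhb bins 4, 5 and 8 moved together. Bin 4 had 80, 146 and 60 counts at 28 months, against 25 counts at 18 months, and bin 5 had 97, 177 and 72 counts at 28 months, against 37 counts at 18 months. Bin 8 had 115, 248 and 88 counts at 28 months, against 44 counts at 18 months, 4.15% ± 1.20 (SD, n = 3), against 0.758% of the gene. Every 28-month share was above the 18-month share, at usage differences of 2.64, 2.35 and 2.46 (edgeR adjusted p 0.0246, 0.0463 and 0.0192). All 3 calls were lost without 28-month replicate 1 (adjusted p 0.148 to 0.236) or replicate 3 (0.173 to 0.309). These bins lie where the 18-month library was low in 74% of genes, and the part of that shift was not tested. The near copy Gm13910 matches bases 120 to 1547 of the 2048-base Hadhb transcript, and not the rest. Shares of Hadhb bins, the 5′-side share included, therefore also depend on how reads alike in both were assigned. That part was not tested, and the Hadhb bins could not be placed.

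For the members not called by the gene test and with no bin that passed, the bin with the smallest p is given by its values. Etfdh bin 9 had 30, 0 and 27 counts at 28 months, against 88 counts at 18 months (edgeR adjusted p 0.107), the 28-month libraries being unlike each other. Cpt2 bin 8 had 96, 213 and 89 counts at 28 months, against 46 counts at 18 months (edgeR adjusted p 0.533). Without 28-month replicate 2 both passed, at adjusted p 0.0078 for Etfdh and 0.0045 for Cpt2, in a fit that called 30% of all genes. The spread in that fit came from 28-month replicates 1 and 3 only, the pair of libraries most alike. In the unit of Cpt1b and Chkb, bin 26 had 312, 462 and 283 counts at 28 months, against 73 counts at 18 months, 1.44% ± 0.107 (SD, n = 3), against 0.354% (edgeR adjusted p 0.0805, with joined units included). Its Simes adjusted p was 0.240, in a fit that called 3.66% of genes.

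Around the 10 enzymes, none of the genes of the 10 pathway lists passed an adjusted p of 0.05 in edgeR, so the values that follow are differences in level without a call. For each list, the number of genes for which all 28-month libraries lay above or below the 18-month library is read against 25.4% of all genes above and 26.4% below, and the range of its median covers the other scalings, filters and bin sets and the fits without 1 of the 28-month libraries. Of 12 other beta-oxidation enzymes, 6 were above and 0 below, at a median log2 difference of 0.24, against 0.06 over all genes. The median was 0.09 with library size set by muscle fibre genes and 0.04 from 5′-side bins, and ranged up to 0.36, without 28-month replicate 2. Acad10, an acyl-CoA dehydrogenase relative, had 6.08, 5.96 and 5.28 CPM at 28 months, against 3.21 CPM at 18 months, a difference of 0.85 ± 0.34 (SE, log2). Hsd17b10, a short-chain hydroxyacyl-CoA dehydrogenase, had 171, 75.6 and 149 CPM at 28 months, against 79.7 CPM at 18 months, with replicate 2 below the 18-month library. Of 12 peroxisomal beta-oxidation genes, 7 were above and 1 below, at a median of 0.29, which ranged between 0.06 from the largest bin and 0.44 from 5′-side bins. The peroxisomal thiolase Acaa1a had 84.4, 59.0 and 73.9 CPM at 28 months, against 37.4 CPM at 18 months, and Hsd17b4, the peroxisomal multifunctional enzyme, had 114.3, 162 and 115 CPM at 28 months, against 82.5 CPM at 18 months.

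The 10 genes of acyl-CoA synthesis and the carnitine shuttle had 3 above and 2 below, near the shares over all genes. Their median of -0.07 was 0.08 without 28-month replicate 1 and 0.04 without replicate 2, and ranged between -0.28 from the largest bin and 0.21 from 5′-side bins. The acyl-CoA synthetase Acsl5 had 30.0, 42.6 and 29.1 CPM at 28 months, against 20.9 CPM at 18 months, and Acsl6 had 172, 53.1 and 138 CPM at 28 months, against 73.8 CPM at 18 months, where the ages overlapped. Of the electron transfer flavoprotein subunits, which hand electrons to Etfdh, Etfa had 283, 292 and 258 CPM at 28 months, against 232 CPM at 18 months, while Etfb, counted with Mir7051, had 380, 160 and 321 CPM at 28 months, against 220 CPM (219.96) at 18 months. Etfa did not overlap between ages and Etfb did, and the median of the pair was 0.32 but -0.17 from 5′-side bins. The 13 citrate cycle genes had 0 above and 4 below, the share below being near that over all genes. Their median of 0.07 was -0.08 with library size set by muscle fibre genes and -0.02 without 28-month replicate 1, and ranged between -0.18 from 5′-side bins and 0.23 without replicate 2. Sucla2, a succinyl-CoA ligase subunit, had 653, 554 and 577 CPM at 28 months, against 776 CPM at 18 months, while Sdhb, of succinate dehydrogenase, overlapped at 625, 331 and 565 CPM at 28 months, against 361 CPM at 18 months.

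Supply and control genes went both ways. Of 11 uptake and handling genes 3 were above and 5 below, at a median of -0.08 that ranged between -0.16 with muscle fibre scaling and 0.14 from 5′-side bins. Of 9 malonyl-CoA control genes 1 was above and 3 below. Their median of -0.04 was 0.01 with muscle fibre scaling, 0.04 and 0.11 without 28-month replicates 2 and 3, 0.09 from 5′-side bins and -0.13 from the largest bin. Fabp3, the muscle fatty acid binding protein, had 27.4, 45.3 and 21.3 CPM at 28 months, against 81.0 CPM at 18 months, a difference of -1.37 ± 0.44 (SE, log2; edgeR unadjusted p 0.0257). Lipe, hormone-sensitive lipase, had 181, 201 and 161 CPM at 28 months, against 84.2 CPM at 18 months, a difference of 1.10 ± 0.32 (SE, log2; edgeR unadjusted p 0.0168). Adipocytes also express Lipe, and white adipocyte markers were higher at 28 months for all 8 genes by their log2 differences; their part was not tested. Prkab2 and Prkaa2, muscle subunits of the AMP-activated kinase that lowers malonyl-CoA, were below the 18-month library throughout. Prkab2 had 292, 275 and 259 CPM at 28 months, against 589 CPM at 18 months, and Prkaa2 had 187, 176 and 188 CPM at 28 months, against 275 CPM at 18 months.

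The 10 PPAR regulators had 3 above and 2 below and the 10 PPAR target genes 1 above and 2 below. The regulator median of 0.04 was -0.16 with muscle fibre scaling, -0.15 and 0.24 without 28-month replicates 1 and 2, and 0.47 from 5′-side bins. The target median of 0.03 was -0.06 with muscle fibre scaling, 0.17 without replicate 1, -0.08 without replicate 2 or 3, and -0.17 from 3′-side bins. Pparg, the adipocyte receptor, had 58.0, 83.6 and 40.8 CPM at 28 months, against 26.1 CPM at 18 months, and Esrrg, an oestrogen-related receptor of oxidative muscle, had 9.07, 12.5 and 9.26 CPM at 28 months, against 23.8 CPM at 18 months. The PPAR target Ucp3, a mitochondrial carrier, had 22.5, 67.9 and 42.9 CPM at 28 months, against 123 CPM at 18 months, all lower at 28 months, and Angptl4, a lipoprotein lipase inhibitor, overlapped at 7.32, 69.9 and 20.97 CPM at 28 months, against 53.6 CPM at 18 months. All 3 ketone body genes were lower in every 28-month library, at a median of -0.98, which was -0.33 from 5′-side bins and -0.89 to -1.07 under every other alternative. The median does not speak for Oxct1, the most abundant of the list, at a difference of -0.18 ± 0.31 (SE, log2). Its levels were 395, 401 and 351 CPM at 28 months, against 433 CPM at 18 months. Slc16a1, a monocarboxylate carrier, had 24.7, 31.0 and 25.9 CPM at 28 months, against 56.1 CPM at 18 months, and Bdh1, 3-hydroxybutyrate dehydrogenase, had 16.1, 17.7 and 15.1 CPM at 28 months, against 32.2 CPM at 18 months. Slc16a1 is also strong in Schwann cells, whose 6 markers were all lower at 28 months, and their part was not tested.

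Over the 4 libraries, the mean centred log2 level of the 10 members was 0.07, -0.06 and -0.04 at 28 months and 0.03 at 18 months. Single members at 18 months ranged between -0.35 (Ech1) and 0.71 (Hadhb), so the near-flat mean joins members that went opposite ways. Of 7260 other genes with a mean of at least 10 CPM, the nearest to this mean profile by Euclidean distance were Vdac2 (0.0092), Dnm1l (0.016), Shc1 (0.022), Leprotl1 (0.023) and Osbp (0.024). Vdac2 had 379, 349 and 355 CPM at 28 months, against 370 CPM (369.9) at 18 months, so the ages overlapped.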

How the data were processed

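The authors deposited, for each library, a table of raw, unscaled counts of exonic bins. The submitters' processing notes name bcl2fastq 1.8.3, TopHat2 2.0.4 and the build GRCm38. How bins were counted (program, annotation release, strand) is not given in the sources used here. Of 374286 bins in 40137 units, 949 units join several genes. Special entries naming no gene (3.36 to 5.20% of the total) were left out. A fragment may have counted in several bins.

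Bins were summed per gene, filtered at a mean of at least 10 counts, scaled by TMM (factors 0.877, 1.28 and 0.897 at 28 months, 0.990 at 18 months) and tested with edgeR 4.0.16 in R 4.3.3, with 2 residual and 3.17 prior degrees of freedom. Exon usage was tested with diffSpliceDGE on bins of single genes with the same filter. P-values were Benjamini-Hochberg adjusted over all genes or bins. Fits without a library used the remaining pair of 28-month libraries. No 2 libraries were duplicates, but 28-month replicates 1 and 3 were far more alike than any other pair. Chi-square over degrees of freedom was 9.49 for them and 61.2 to 74.1 for the other pairs. Exact intervals and limits of 3 counts cover counting error only. Bins were placed with GENCODE M21 where bin numbers were equal, and near copies were found with BLAST 2.17.0 (at least 100 bases and 85% identity). Of the lists, genes named are the 2 largest differences each at a mean of at least 1 CPM; for exon usage, every bin called and the bin with the smallest p of each member. Likeness used all 4 libraries, with predicted genes left out. Symbols matched 39039 identifiers. The scripts were tested on simulated data. The members and lists were chosen with earlier results of these data known. Alternatives were other scalings, filters, tools and bin sets, DESeq2 1.42.0 and limma 3.58.1 (voom) included. Bins of the 5′ or 3′ side, Hadhb with Gm13910, and joined units were added after the data were seen.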

Additional observations from a re-analysis of the deposited data

How the results depend on the processing

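No paired analysis was possible because the 18-month group has 1 library and no replicate number. Genes called for expression numbered 0, against 11 with library size set by muscle fibre genes, 34 by DESeq2 and 1 to 1806 without each 28-month library in turn; members called were 0 to 1 there. Genes called for exon usage (389) numbered 174 for bins of at least 50 counts, 1765 by limma voom, 206 without end bins, 3375 by the gene F-test and 164 to 3301 without each library; members called (6) numbered 3 for bins of at least 50 counts and 3 to 9 without each library. Member differences turned direction for Cpt1b with muscle fibre scaling (-0.052) and without 28-month replicate 3 (-0.015; -0.015 to 0.11 without each library), from the largest bin for Acadm (-0.32), Hadha (0.45), Cpt2 (0.031) and Etfdh (0.022), and from 5′-side bins for Acadvl (-0.14), Cpt1b (-0.10), Cpt2 (0.57), Acaa2 (-0.13) and Ech1 (-0.034); the cause was not tested. The other 118 of 130 member values kept direction and call, apart from Hadhb without replicate 2. The 5′-side value of Cpt1b is that of its joined unit, whose 5′ side is mostly Chkb, and is not a result for Cpt1b. With 1 library at 18 months, spread at that age is unknown.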
